A study of Mus musculus with 12 samples.

Results

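The genes Cyp2d9, Cyp2d10, Cyp2d22, Cyp2d26, Cyp2d40, Cyp2e1, Cyp2f2, Cyp2j5, Cyp2j6 and Cyp2u1 encode hepatic cytochrome P450 enzymes of the Cyp2 family outside its Cyp2a, Cyp2b and Cyp2c branches. They were taken by gene name from liver RNA-Seq tables of 2 mouse models of obesity, and all 10 were present in both tables. They accounted for 12 of 19834 quantified transcripts in the dietary model and for 13 of 19918 in the genetic model. Quantified means here that the transcript has the status OK, and transcripts of another status can still have a listed value. In the dietary model, livers of wild-type C57BL/6 mice (C57BL/6N in the methods of the study) on a high-fat diet (HFD, 54 kJ% fat) were compared with those on a control diet (CD, 11 kJ% fat). For genetic obesity, db mice, labelled Leprdb, were set against misty mice, and both received the diet with 11 kJ% fat. The genotype label of the misty samples contains Leprdb as well, so the group of each sample was taken from the sample titles. The deposited group values themselves are named Misty and DBDB, and the ratios of db over misty follow those names. Per the methods of the study, misty mice are control littermates of the db mice, the db and misty mice are of the BKS background although the labels give C57BL/6, and the mice of both models were male. According to the labels each group holds 3 livers and all 12 animals were 36 weeks old, whereas the methods give a younger age and more animals for db and misty, so the age of those mice is uncertain.

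P450 enzymes sit in the membrane of the endoplasmic reticulum and insert an oxygen atom into their substrates at a heme iron, with electrons delivered by P450 reductase and cytochrome b5. Cyp2d enzymes oxidise many drugs and, in mice, steroids, Cyp2e1 oxidises ethanol, acetone and acetaminophen, Cyp2f2 activates naphthalene, and Cyp2j enzymes convert arachidonic acid to epoxides. Several P450 genes of mouse liver differ between the sexes under the control of growth hormone pulses, and Cyp2d9 is a classical male-biased gene of this kind. Expression was given as FPKM, that is fragments scaled to transcript length and to the number of mapped fragments, with 1 value per group and no value for a single liver. Replicate error, tests and intervals could therefore not be computed, depth is unknown, and each difference below is a description of the deposited group values. Since whole liver was sequenced, fewer cells of a type and less RNA per cell cannot be told apart.

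The enzymes are related in sequence and share a loop whose cysteine holds the heme iron. The coding stretch of this loop, 30 bases long and interrupted by an intron in all 10 genes, is shown from the GENCODE vM21 transcripts (GRCm38) to make visible how alike the members are, with the codon of that cysteine in capitals.
Cyp2d9 (chr15:82456466-82456595, + strand): ttctcagcaggccgcagatcaTGCctgggg
Cyp2d10 (chr15:82403077-82403206, - strand): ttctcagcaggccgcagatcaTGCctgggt
Cyp2d40 (chr15:82760065-82760194, - strand): ttctcagcaggccgtcgagcaTGTctgggt
Cyp2e1 (chr7:140773762-140774577, + strand): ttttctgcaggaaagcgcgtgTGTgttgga
Cyp2f2 (chr7:27132606-27133235, + strand): ttttcggctggacgtcgactgTGTctggga
Cyp2j5 (chr4:96629627-96630720, - strand): ttctcaatgggaaaaagagctTGTcttgga
Cyp2j6 (chr4:96518186-96523712, - strand): ttctcaatgggaaagcgagctTGCctggga
Cyp2u1 (chr3:131291288-131293526, - strand): tttgggatagggaagcgggtgTGTatggga
Cyp2d22 and Cyp2d26 carried the same 30 bases as Cyp2d9, and Cyp2d10 differed from them by 1 base. The Cyp2d40 transcript had a shorter coding sequence of 338 codons, against 504 for Cyp2d9. Cyp2j5 and Cyp2j6 differed by 4 bases, and Cyp2u1 differed from Cyp2d9 by 18. Over the whole coding sequence, Cyp2d9 and Cyp2d10 were identical at 92.5% of 1512 aligned bases, and 10.5% of the 50-base windows of Cyp2d9 were also present in Cyp2d10. The identity of Cyp2d9 was 81.9% with Cyp2d26 and 78.7% with Cyp2d22, and that of Cyp2j5 with Cyp2j6 was 78.9%. Reads from windows shared between Cyp2d genes could be split among them, so the values of Cyp2d9 and Cyp2d10 in particular carry this uncertainty. Cyp2d genes beyond the 10 were not aligned.

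In the dietary model, 9 of 10 genes were lower in HFD than in CD liver, and all 5 Cyp2d genes had log2 ratios below 0. With 1.5-fold as the limit, 4 genes were lower (Cyp2d9, Cyp2d10, Cyp2e1 and Cyp2u1) and 0 were higher. Of 7765 transcripts with a mean of at least 1 FPKM, 8.44% were lower and 10.9% higher by this limit. Cyp2j5 had the highest ratio of the 9 lower genes, -0.02 on the log2 scale, and 52.3% of the same transcripts had a lower ratio. After centring on the median of all transcripts, Cyp2j5 stood at 0.02. The median log2 ratio, calculated throughout as obese over control after adding 0.1 FPKM to each value, was -0.47 for the 10 genes and -0.04 for all those transcripts. Cyp2d10 at 1.51-fold and Cyp2d26 at 1.49-fold lie on either side of the limit, and the count was 2 when ratios were centred on the median of all transcripts and 2 of 8 genes when a mean of 5 FPKM was required. Scaling both groups to an equal sum over all listed transcripts, of which 20 transcripts hold 89.5% in CD liver, turned all 4 of these genes to ratios above 0.

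In the genetic model the picture was mixed, with most genes higher in db than in misty liver and the most abundant Cyp2d gene lower. By the limit of 1.5-fold, 5 genes were higher (Cyp2d22, Cyp2d26, Cyp2d40, Cyp2j6 and Cyp2u1) and 1 was lower (Cyp2d9). The background was 16.5% higher and 11.5% lower among 7593 transcripts. The median log2 ratio was 0.52 for the 10 genes and 0.05 for all those transcripts, and the range of the genes ran from -1.71 to 1.28. At a limit of 2-fold, 2 genes remained past it in the genetic model (Cyp2d9 lower and Cyp2d40 higher) and 0 in the dietary model. Scaling to an equal sum, of which 20 transcripts hold 94.7% in misty liver, put all 10 genes above the limit, Cyp2d9 among them.

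The strand of an assembled transcript is given here by the order of transcript numbers, which run along 1 strand of a chromosome and then the other. Of named transcripts that were not quantified, 97.3% and 97.4% were numbered on the annotated strand in the dietary and genetic tables, against 45.8% and 45.7% of those quantified. Of the 10 genes, the transcript taken was on the own strand in the dietary model in all cases and in the genetic model in all cases except Cyp2j5 and Cyp2u1.

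**Figure D1:**
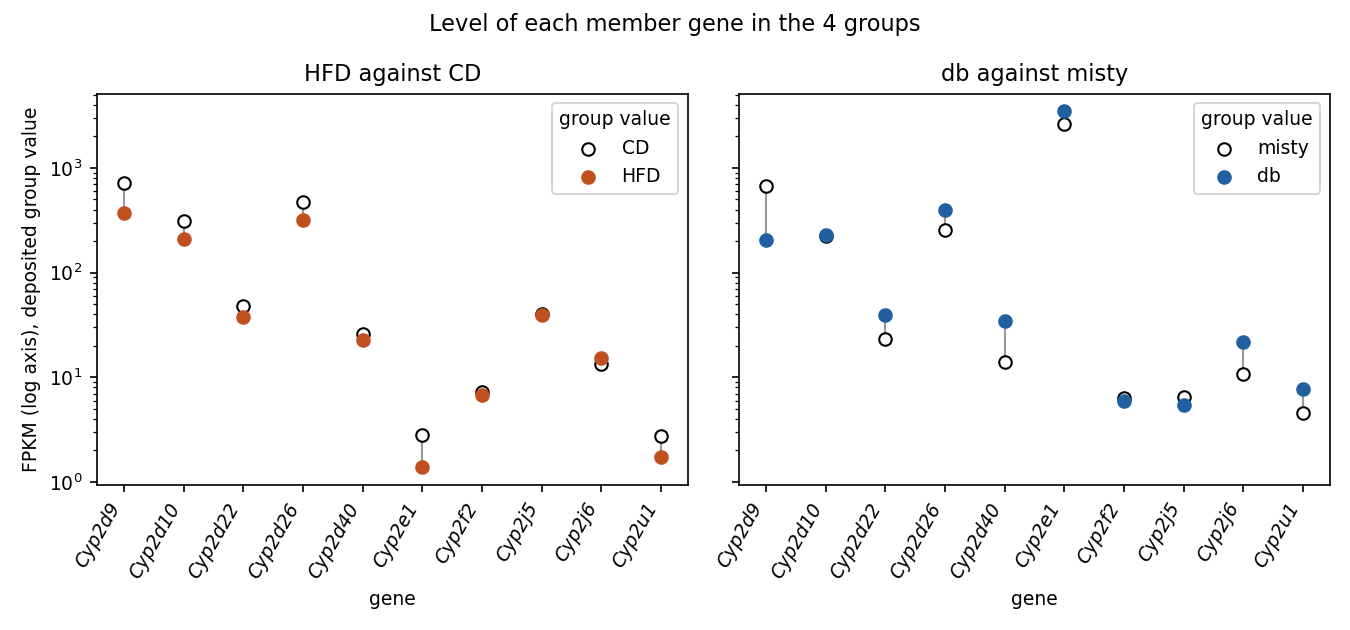
Level of each gene as the deposited group value in FPKM on a log axis, with the control group as open and the obese group as filled points; the 2 panels were normalized separately and cannot be compared in level. Cyp2d9 is the most abundant of the genes in CD liver at 712 FPKM, and Cyp2e1 is the most abundant in misty liver at 2631 FPKM.

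Among the Cyp2d enzymes, Cyp2d9 (chr15:82452377-82456827 on GRCm38, + strand), a testosterone hydroxylase of male mouse liver, was lower in both obese groups. Its value was 712 FPKM in CD and 369 FPKM in HFD liver, a log2 ratio of -0.95. It was 677 FPKM in misty and 207 FPKM in db liver, a log2 ratio of -1.71. Only 3.58% of the background transcripts of the dietary model and 2.41% of those of the genetic model had a lower ratio. In both models 1 transcript number is skipped after this Cyp2d9 transcript, so its value may be 1 transcript of several. A second transcript named Cyp2d9 was listed in each table at a small part of the level of the first. In the dietary model it was numbered on the opposite strand and had 35.1 FPKM in CD and 15.9 FPKM in HFD liver. In the genetic model it was numbered on its own strand and was level, with 21.6 FPKM in misty and 21.0 FPKM in db liver (log2 ratio -0.04).

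Cyp2d10 (chr15:82402846-82407194, - strand), the neighbour and closest relative of Cyp2d9, was lower with the diet and nearly level in the genetic model. It had 313 FPKM in CD and 208 FPKM in HFD liver, a log2 ratio of -0.59. It had 225 FPKM in misty and 231 FPKM in db liver, a log2 ratio of 0.04. The genes with 92.5% identical coding sequence thus had ratios 1.75 apart on the log2 scale in the genetic model and 0.36 apart in the dietary model. In the genetic model both lie in 1 assembled locus (chr15:82389154-82707457) together with transcripts of other Cyp2d genes. In the dietary model their assembled loci are separate. Whether this difference in assembly affects the ratios was not tested.

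Cyp2d26 (chr15:82790107-82794245, - strand) was the next most abundant Cyp2d gene in both control groups. It had 471 FPKM in CD and 316 FPKM in HFD liver, a log2 ratio of -0.57 that falls just short of the limit. It was higher in the genetic model, with 257 FPKM in misty and 400 FPKM in db liver and a log2 ratio of 0.64. Cyp2d22 (chr15:82370528-82380260, - strand) went the same ways at a lower level. It had 48.4 FPKM in CD and 37.5 FPKM in HFD liver (log2 ratio -0.37), and 23.0 FPKM in misty and 39.5 FPKM in db liver (log2 ratio 0.78). Cyp2d40 (chr15:82759835-82764183, - strand) was the least abundant of the 5 Cyp2d genes in all groups and had the highest ratio of the 10 genes in the genetic model. It had 25.8 FPKM in CD and 22.6 FPKM in HFD liver (log2 ratio -0.19), and 14.0 FPKM in misty and 34.2 FPKM in db liver (log2 ratio 1.28).

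The sum over the 5 Cyp2d genes was 1570 FPKM in CD and 953 FPKM in HFD liver, and 1196 FPKM in misty and 911 FPKM in db liver. Cyp2d9 supplied 45.4% of this sum in CD and 38.7% in HFD liver. Its share was 56.6% in misty and 22.7% in db liver. Without Cyp2d9 the sum was lower in HFD (858 FPKM in CD against 584 FPKM) but higher in db liver (519 FPKM in misty against 704 FPKM), so the Cyp2d total of the genetic model was lower only with Cyp2d9 included.

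**Figure D2:**
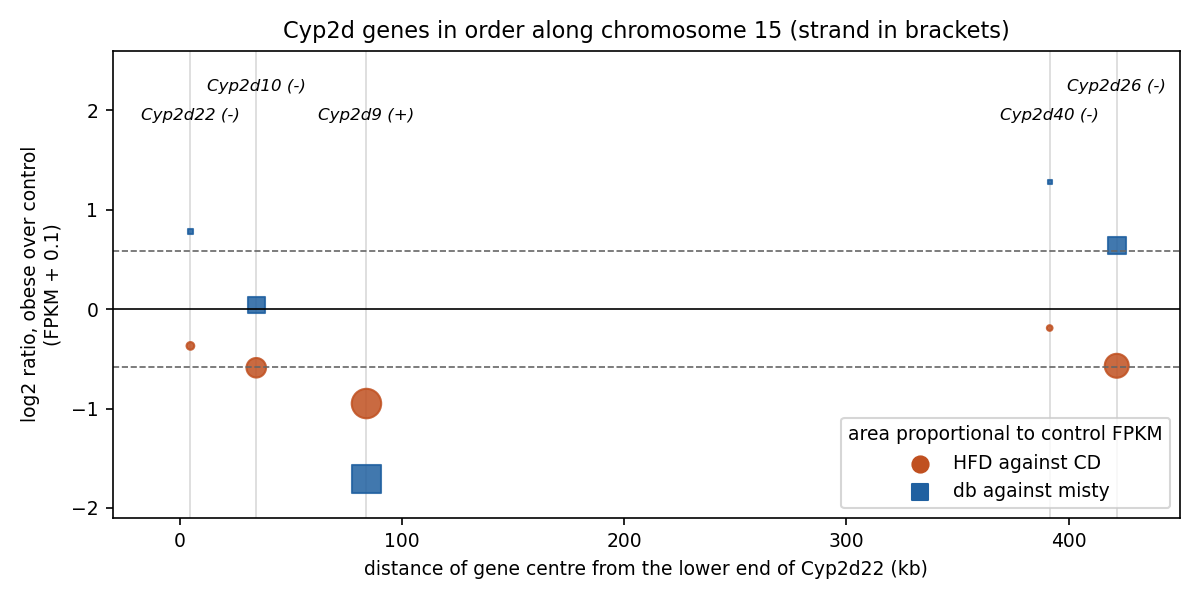
Log2 ratio of the 5 Cyp2d genes against the distance of the gene centre, in kb, from the lower end of Cyp2d22 on chromosome 15, with circles for HFD against CD, squares for db against misty, symbol area proportional to the control FPKM and dashed lines at 1.5-fold. Cyp2d9, the only one of the 5 on the + strand, is the lowest point in both comparisons, and the points of its neighbour Cyp2d10 are the next to the left.

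The gap between the ends of Cyp2d9 and Cyp2d10 is 45.2 kb, and 303 kb separate Cyp2d9 from Cyp2d40 on its other side. Promoters of 8 of the 10 genes matched by symbol in a RefSeq table (GRCm38.p6, 250 bases before to 50 bases after the start). Those of Cyp2d9 and Cyp2d10 are shown because these neighbours are the closest pair of the 10 genes in coding sequence but differed in the genetic model. Capitals mark bases that differ between them or have no partner in their alignment.
Cyp2d9 (chr15:82452127-82452426, + strand): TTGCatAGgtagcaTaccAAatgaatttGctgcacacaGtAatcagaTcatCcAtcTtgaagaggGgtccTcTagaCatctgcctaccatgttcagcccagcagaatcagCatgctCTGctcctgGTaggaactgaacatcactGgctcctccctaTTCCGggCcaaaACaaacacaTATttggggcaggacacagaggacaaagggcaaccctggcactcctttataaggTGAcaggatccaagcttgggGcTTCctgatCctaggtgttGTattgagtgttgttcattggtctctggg
Cyp2d10 (chr15:82407145-82407444, - strand): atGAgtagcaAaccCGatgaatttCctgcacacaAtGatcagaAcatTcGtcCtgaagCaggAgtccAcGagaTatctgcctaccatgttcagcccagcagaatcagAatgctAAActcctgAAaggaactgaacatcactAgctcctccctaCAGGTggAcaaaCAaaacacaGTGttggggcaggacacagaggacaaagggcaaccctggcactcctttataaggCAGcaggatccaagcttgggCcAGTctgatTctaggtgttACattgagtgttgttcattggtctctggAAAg
The aligned promoters were identical at 85.1% of 296 bases, with 44 differing bases and 4 unpaired bases in each. The Cyp2d9 promoter was identical to that of Cyp2d26 at 65.9% of 261 aligned bases. The letters TATAAA were searched on both strands. In the 2 printed promoters they lie on the opposite strand and read TTTATA as printed. This match begins 28 bases before the start of Cyp2d9 and 31 bases before that of Cyp2d10. On either strand, TATAAA was found in 6 of the 8 promoters (also Cyp2d26, Cyp2d40, Cyp2e1 and Cyp2j5). Of 32817 promoters of the same length, 13.6% hold it on either strand. TTCNNNGAA, the palindrome bound by STAT factors, was found in none of the 8 promoters and is present in 8.29% of all. GTTAAT, a core of the HNF1 site, was found in Cyp2d26 and is present in 7.10% of all. AGGTCA, the core of nuclear receptor sites, was found in Cyp2d40, Cyp2f2 and Cyp2j5 and is present in 16.3% of all. These matches describe the letters of the window and no binding.

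Cyp2e1 (chr7:140763739-140774987, + strand), the ethanol and acetone oxidising enzyme of pericentral hepatocytes, was listed at very different levels in the tables. It had 2.81 FPKM in CD and 1.38 FPKM in HFD liver, a log2 ratio of -0.97. It had 2631 FPKM in misty and 3476 FPKM in db liver, a log2 ratio of 0.40 and within the limit. The tables list 1 assembled transcript for each locus number while the transcript numbers run on, and after the Cyp2e1 transcript 4 numbers are skipped in both tables, so its value may be 1 transcript of several and not a total of the gene. In the dietary table, a transcript named for the neighbour Syce1 shared the assembled locus of Cyp2e1 and had 101 FPKM in CD and 64.2 FPKM in HFD liver. In the genetic table, a transcript named Cyp2e1 but numbered on the opposite strand had 49.4 FPKM in misty and 81.7 FPKM in db liver. The 4 genes without skipped numbers in the dietary model (Cyp2d22, Cyp2d26, Cyp2d40 and Cyp2j6) had a median log2 ratio of -0.28, and 0 of the 4 passed the limit.

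Cyp2f2 (chr7:27119909-27133660, + strand), known for naphthalene activation in airway cells and for periportal expression in liver, was nearly level in both models. It had 7.26 FPKM in CD and 6.71 FPKM in HFD liver (log2 ratio -0.11), and 6.29 FPKM in misty and 5.96 FPKM in db liver (log2 ratio -0.08). After its transcript 3 numbers were skipped in both tables, so the limit given for Cyp2e1 holds for it too. The same limit holds for Cyp2d9 and Cyp2d10, each with 1 skipped number in both models. It also holds for own-strand Cyp2j5 in the dietary model, with 2, and for own-strand Cyp2u1 in both models, with 4. Each gene past 1.5-fold with the diet thus carries it.

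Of the arachidonic acid epoxygenases, Cyp2j6 (chr4:96516138-96553661, - strand) was the only one of the 10 genes with a ratio above 0 in the dietary model. It had 13.4 FPKM in CD and 15.2 FPKM in HFD liver (log2 ratio 0.18), and 10.9 FPKM in misty and 21.5 FPKM in db liver (log2 ratio 0.98). Cyp2j5 (chr4:96628773-96664154, - strand), an epoxygenase of mouse kidney and liver, had 40.1 FPKM in CD and 39.5 FPKM in HFD liver (log2 ratio -0.02). Its second transcript in that table, numbered on the opposite strand, had 7.13 FPKM in CD and 5.10 FPKM in HFD liver. In the genetic model the quantified Cyp2j5 transcript was numbered on the opposite strand alone, with 6.53 FPKM in misty and 5.46 FPKM in db liver (log2 ratio -0.25). The Cyp2j5 ratios of the models therefore rest on different transcripts.

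Cyp2u1 (chr3:131288441-131303227, - strand), which hydroxylates long-chain fatty acids, was low in all groups and passed the limit in opposite directions. It had 2.73 FPKM in CD and 1.74 FPKM in HFD liver, a log2 ratio of -0.62. In the genetic model its more abundant transcript, numbered on the opposite strand, had 4.52 FPKM in misty and 7.78 FPKM in db liver, a log2 ratio of 0.77. The transcript on its own strand had 0.871 FPKM in misty and 1.44 FPKM in db liver, a log2 ratio of 0.67.

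**Figure D3:**
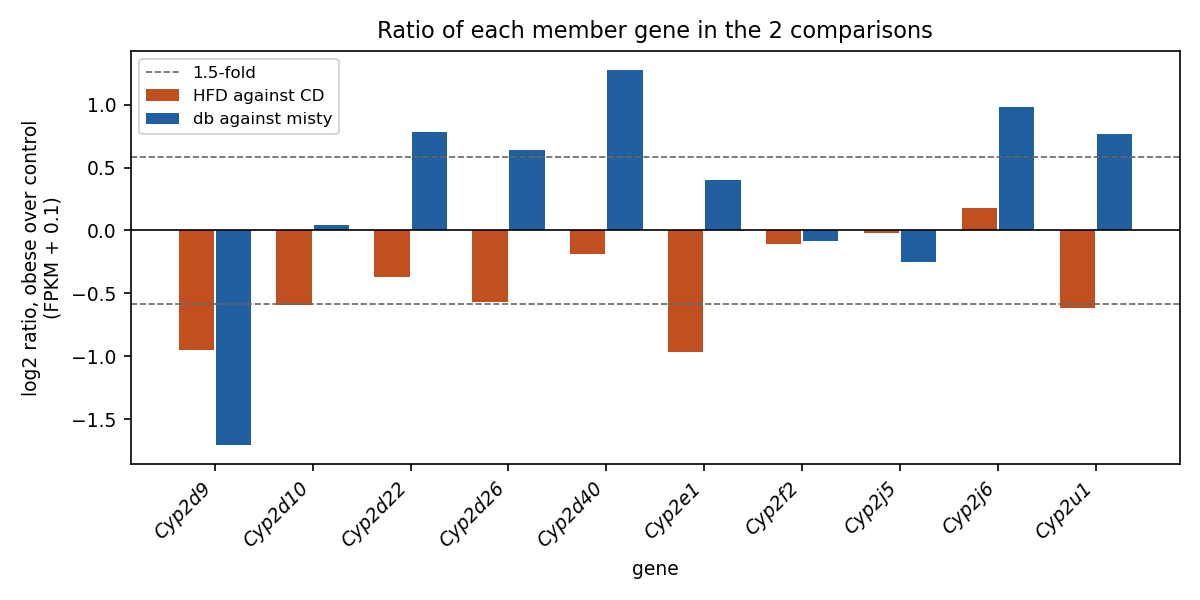
Log2 ratio of obese over control (FPKM + 0.1) for each gene, with 1 bar for each comparison and dashed lines at 1.5-fold. Cyp2d9 is past the line downwards in both comparisons at -0.95 and -1.71, while Cyp2u1 is past it downwards at -0.62 and upwards at 0.77.

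**Figure D4:**
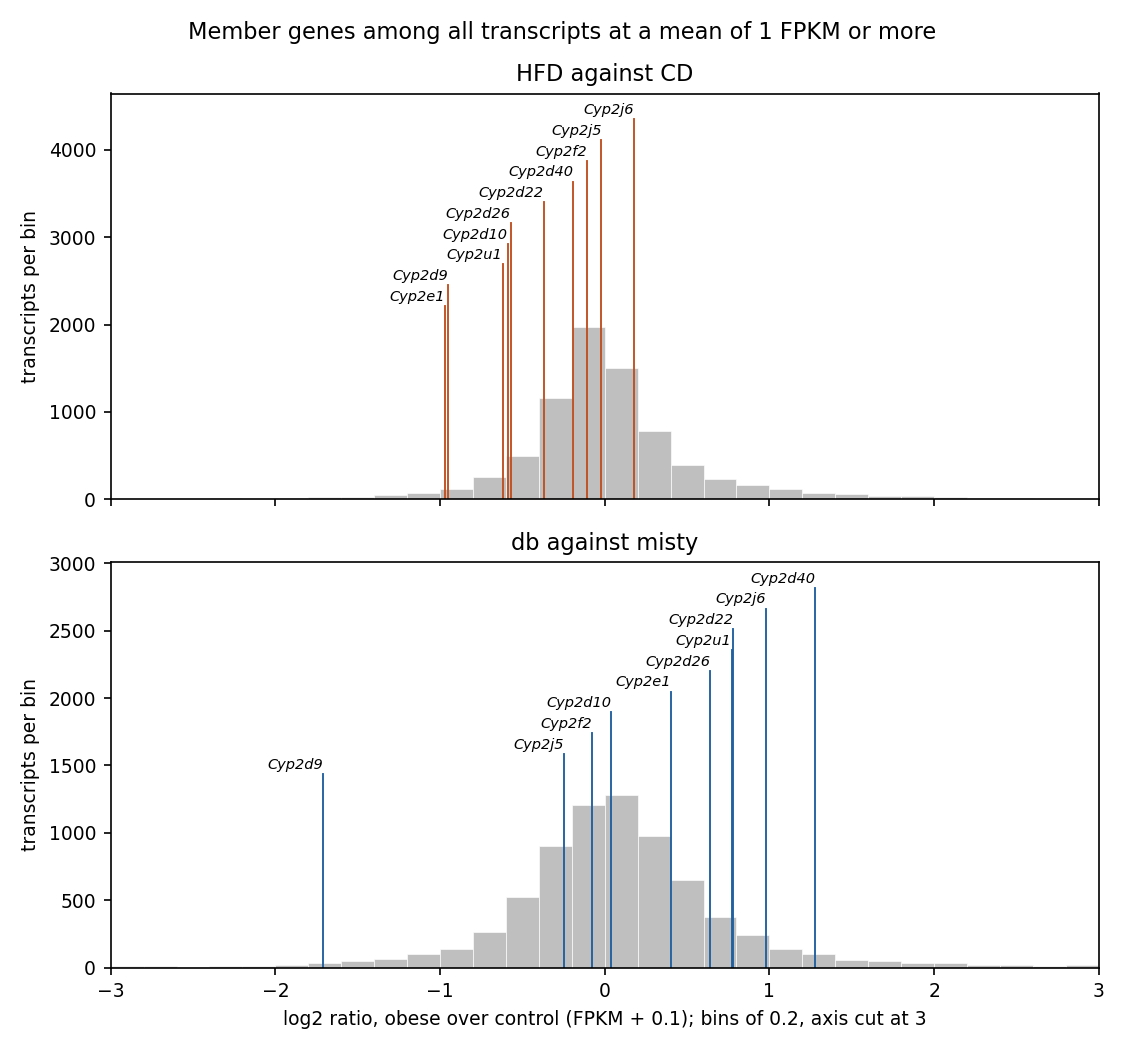
Number of transcripts with a mean of at least 1 FPKM by log2 ratio in bins of 0.2, cut at 3 on either side, with the 10 genes as vertical lines whose height has no meaning. In the dietary model 9 of the 10 lines lie below 0, as do at least 52.3% of the transcripts. In the genetic model Cyp2d9 at -1.71 lies apart from the other 9, which span -0.25 to 1.28.

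The enzymes that serve P450s were counted in the same way, over list genes with a mean of at least 1 FPKM. Among genes named from the lists, the transcript taken was numbered on the opposite strand for Hnf4a, Aldh1b1, Slc13a3, Hsd3b5, Cd5l, Lrat and Spp1 in both tables. This held in the dietary table also for Aldh1a1, Slco1a1 and Vwf. In the genetic table it held also for Cyb5r3, Cyb5r1, Pgrmc2, Onecut1, Cps1, Ass1, Tat and Sox9. The values of all these transcripts may not be those of the gene itself. Of electron donors and membrane partners, 1 of 5 was higher and 0 were lower in HFD liver, where cytochrome b5 reductase Cyb5r3 had 36.5 FPKM in CD and 57.3 FPKM in HFD liver. In the genetic model all 4 at a mean of at least 1 FPKM were higher in db liver. Of the 6 quantified there, Pgrmc1 and Cyb5r1 fell below that mean and were lower in db liver. Pgrmc1 had 0.692 FPKM in misty and 0.00220 FPKM in db liver, and Cyb5r1 0.725 and 0.382 FPKM. Cyb5r3 had 21.0 FPKM in misty and 80.7 FPKM in db liver, cytochrome b5 (Cyb5a) 112 and 249 FPKM, Cyb5b 6.45 and 13.9 FPKM and Pgrmc2 2.83 and 4.55 FPKM. The medians of the list were 0.25 and 1.12 on the log2 scale. P450 reductase itself, Por, was not quantified in either table, and its listed transcript was near 0 with the diet and at 0.106 FPKM in misty and 0.194 FPKM in db liver.

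Of heme synthesis and breakdown genes, 1 of 8 was higher and 1 lower in the dietary model, and 0 of 4 passed the limit in the genetic model. Heme oxygenase Hmox1 had 8.24 FPKM in CD and 16.5 FPKM in HFD liver. Ferrochelatase Fech, which inserts iron to form heme, had 4.07 FPKM in CD and 1.32 FPKM in HFD liver. The medians were -0.30 and -0.10.

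Of the transcription factors that control hepatic P450 genes, 0 of 11 passed the limit with the diet (median -0.22) and 1 of 12 was lower in the genetic model (median -0.09). That gene was Onecut1, with 8.66 FPKM in misty and 3.37 FPKM in db liver. The hepatocyte nuclear receptor Hnf4a had 30.9 FPKM in CD and 23.9 FPKM in HFD liver, and 25.1 FPKM in misty and 16.8 FPKM in db liver, on a transcript numbered on the opposite strand. Both differences lie within the limit.

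Of the enzymes and partners that handle epoxides and arachidonic acid products, 1 of 3 was lower and 0 were higher with the diet. Soluble epoxide hydrolase Ephx2, which opens the epoxides made by Cyp2j enzymes, had 942 FPKM in CD and 446 FPKM in HFD liver. For db liver, 1 of 4 was higher and 1 lower. Ephx2 had 846 FPKM in misty and 509 FPKM in db liver, while the prostaglandin dehydrogenase Hpgd had 13.5 FPKM in misty and 41.2 FPKM in db liver. The list medians were -0.16 and 0.27.

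Of ethanol and aldehyde metabolism genes, the partners of Cyp2e1, 2 of 4 were higher and 1 lower with the diet (median 0.23). Aldh1b1 had 6.14 FPKM in CD and 16.0 FPKM in HFD liver, Aldh1a1 7.41 and 11.7 FPKM and Adh4 16.9 and 4.69 FPKM. Among db and misty livers 3 of 5 were higher in db and 0 lower (median 1.18). Aldh1a1, here on its own strand, had 495 FPKM in misty and 1122 FPKM in db liver, Aldh1b1 2.73 and 17.5 FPKM and Adh4 4.91 and 13.0 FPKM.

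Genes of the liver zones were counted because Cyp2e1 and Cyp2f2 are zonal. Of pericentral genes, Slc13a3 and Glul of 5 were higher with the diet and Cyp1a2 was lower (median 0.08). Slc13a3 had 3.05 FPKM in CD and 8.62 FPKM in HFD liver, and Cyp1a2 had 122 and 52.2 FPKM. Glutamine synthetase Glul had 2.26 and 3.45 FPKM, and was not quantified in the genetic model. In db liver 3 of 4 pericentral genes were higher (median 1.12), namely Slc13a3 with 1.07 and 4.31 FPKM, Tbx3 with 0.740 and 2.37 FPKM and Gulo with 43.6 and 70.2 FPKM. Of periportal genes, 1 of 7 was higher (Aldh1b1) and 1 lower with the diet (Gls2 with 82.3 FPKM in CD and 49.6 FPKM in HFD liver, median -0.25). In db liver 3 of 8 were higher and 1 lower (median 0.40), with Aldh1b1 as above, Hal at 6.24 and 24.8 FPKM, Gls2 at 52.5 and 79.2 FPKM and Ass1 at 14.0 and 8.27 FPKM. Cps1 had 22.7 FPKM in misty and 18.5 FPKM in db liver and was not quantified in the dietary model.

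The sex-biased liver genes went furthest beside Cyp2d9. Of male-biased genes, 7 of 8 were lower and 0 higher in HFD liver, with a median of -2.97. Hsd3b5 had 3.86 FPKM in CD and 0.0167 FPKM in HFD liver, Slco1a1 10.5 and 0.417 FPKM, Serpina1e 77.6 and 5.87 FPKM and Cyp4a12b 29.6 and 2.24 FPKM. In db liver 9 of 10 were lower and 0 higher, with a median of -3.17. Serpina1e had 239 FPKM in misty and 1.07 FPKM in db liver, Hsd3b5 3.76 and 0.0509 FPKM, Cyp7b1 65.2 and 2.68 FPKM and Ugt2b38 6.29 and 0.310 FPKM. Cyp2d9 was lower in the same libraries, by less than the median of the male list in both models.

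Of female-biased genes, 4 of 5 were higher and 1 lower in HFD liver. Cyp2b13 had 0.0628 FPKM in CD and 6.19 FPKM in HFD liver, Cyp2a4 0.329 and 5.74 FPKM, and Cyp2b9 8.85 and 103 FPKM, whereas Acot3 had 4.10 and 1.39 FPKM. In db liver 8 of 8 were higher. Cyp2b9 had 0.104 FPKM in misty and 223 FPKM in db liver, Cyp2a4 0.00806 and 9.39 FPKM, and Sult3a1 and Cyp2b13, at or near 0 in misty, had 166 and 35.5 FPKM in db liver. The medians of 3.53 and 6.41 are on the log2(FPKM + 0.1) scale, whose pseudocount sets the ratios of genes near 0. Whether the sex-biased pattern and the level of Cyp2d9 are linked was not tested.

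**Figure D5:**
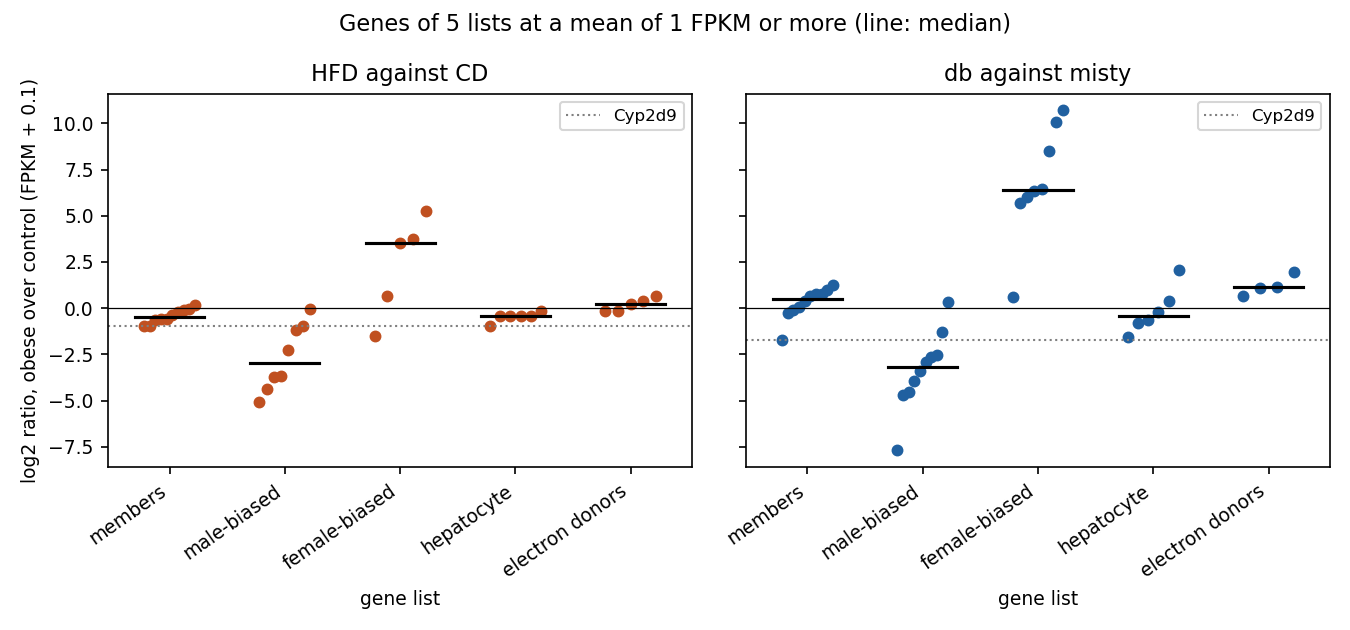
Log2 ratio (FPKM + 0.1) of the single genes of 5 lists with a mean of at least 1 FPKM, with 1 panel for each comparison, a line at each median and a dotted line at Cyp2d9. Cyp2d9 at -0.95 and -1.71 lies above the male-biased medians of -2.97 and -3.17 and below the medians of the other lists.

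Of 16 further Cyp2d, Cyp2j, Cyp2f and single-gene Cyp2 members, few were quantified at a mean of 1 FPKM. With the diet 1 of 2 was lower and 0 higher (median -0.32), and in db liver 0 of 1 passed the limit. Cyp2j9, the neighbour of Cyp2j5, had 4.57 FPKM in CD and 2.79 FPKM in HFD liver, and 3.44 FPKM in misty and 4.08 FPKM in db liver.

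The Cyp2a, Cyp2b and Cyp2c genes, other branches of the Cyp2 family, differed more towards higher values. With the diet 8 of 17 were higher and 4 lower (median 0.44), against 0 and 4 of the 10 members. In db liver 16 of 18 were higher and 0 lower (median 2.30), against 5 and 1 of the 10 members. Over all Cyp genes beside the members, these branches included, 11 of 39 were higher and 14 lower with the diet (median -0.38, against -0.47 for the members). In db liver 22 of 39 were higher and 4 lower (median 0.99, against 0.52). These are descriptions of group values, and the differences between the sets were not tested.

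Cell markers were summarised for the same tables. Hepatocyte markers had 0 of 6 higher and 1 lower with the diet (median -0.42), namely Apoa1 with 3659 FPKM in CD and 1847 FPKM in HFD liver, and the summed level was 11505 and 8212 FPKM. In db liver 1 of 6 was higher and 3 lower (median -0.44), with Apoa1 at 3623 and 1244 FPKM, Ahsg at 2673 and 1554 FPKM, Tat at 37.3 and 23.8 FPKM and Ttr at 0.664 and 3.15 FPKM, and the summed level was 7437 and 3784 FPKM. Ttr had 3053 FPKM in CD and 2767 FPKM in HFD liver. Its low values in misty and db liver may therefore not be a total of the gene. Albumin was listed at 0 in all 4 groups, so a listed 0 need not mean absence. Macrophage markers had 3 of 5 higher with the diet (Lyz2 24.7 and 62.6 FPKM, Cd5l 3.09 and 6.92 FPKM, Cd68 7.33 and 14.7 FPKM; median 1.00) and 1 of 6 higher in db liver (Cd5l 1.60 and 2.66 FPKM; median 0.19). Their summed level was 41.7 and 90.8 FPKM in CD and HFD liver and 25.2 and 25.0 FPKM in misty and db liver. Endothelial markers had 3 of 5 higher with the diet (Vwf 1.10 and 2.22 FPKM, Lyve1 3.11 and 5.40 FPKM, Pecam1 0.912 and 1.59 FPKM; median 0.74) and 0 of 4 in db liver (median 0.20). Stellate cell markers had 1 of 2 higher with the diet (Lrat 3.11 and 4.79 FPKM; median 0.52) and 2 of 4 in db liver (Acta2 0.646 and 1.38 FPKM, Lrat 4.01 and 6.08 FPKM; median 0.47). Cholangiocyte markers had 1 of 2 higher with the diet (Spp1 3.18 and 14.5 FPKM; median 1.05), and 1 higher and 1 lower in db liver (Spp1 3.22 and 5.40 FPKM, Sox9 3.44 and 1.00 FPKM; median -0.48). No lymphocyte marker reached a mean of 1 FPKM. Of kidney, lung and intestine markers only Fabp2, which liver also makes, was quantified. The part of cell composition in the ratios of the P450 genes was not tested.

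The leptin receptor gene Lepr, mutated in db mice, was checked against the labels. Its transcript on the own strand had 0.535 FPKM in misty and 0.106 FPKM in db liver. The 4 further transcripts of that name were lower in db liver as well. All 4 were numbered on the opposite strand, so their values may not be those of Lepr itself. In the dietary model the own-strand Lepr transcript had 1.33 FPKM in CD and 0.879 FPKM in HFD liver. These low values do not tell whether the mutant form itself was measured.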

How the data were processed

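RNA of 12 livers, 3 in each of 4 groups, was sequenced from strand-specific libraries depleted of ribosomal RNA. Per the methods of the study, the HFD and CD libraries were made and sequenced at a different centre from the others. Kits, sequencing instrument and read length differed as well. Differences between the 2 models therefore cannot be told apart from these technical differences. Per the labels and the methods of the study, the authors filtered reads with Bowtie2 2.2.9, used STAR 2.6.0c for alignment to mm10 (GRCm38), Cufflinks 2.2.1 with Ensembl release 90 for assembly, and Cuffdiff to compare groups. The deposited values are FPKM, 1 per group and transcript as Cuffdiff gave them, in 1 table per model, and the tables were normalized separately. These values carry no depth or spread between animals, so no test was run and no p-values were computed. A further part of the genotype label of the misty group is not reported here. The fold changes, test statistics, p-values and q-values of the authors' own comparison are in the tables as well and were not used.

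A transcript was used where its status was OK, and a gene was represented by its transcript with the highest mean of both groups. Log2 ratios were computed after adding 0.1 FPKM, and 1.5-fold in either direction was the limit for a description. The background was all OK transcripts with a mean of at least 1 FPKM. The computation was tested on simulated data without noise, which checks its arithmetic and nothing about the deposited values. The 10 genes, 17 gene lists and the naming rule were chosen with earlier results of these data known. The rule names all 10 members with every OK transcript, from each list up to 4 genes per table with the largest ratios past the limit at a mean of at least 1 FPKM, and Por, Hnf4a, Glul, Cps1 and Lepr. Genes named beyond the rule (Syce1, Alb, Fabp2, Pgrmc1, Cyb5r1) were chosen after their values were seen. Coding identity was computed by global alignment with Biopython 1.88, and figures were drawn with matplotlib 3.10.9. Alternatives were other pseudocounts, minimum levels, limits, ways to represent a gene and scalings.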

Additional observations from a re-analysis of the deposited data

Results flagged for a closer look

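Cyp2u1 was past 1.5-fold in opposite directions in the models, with a log2 ratio of -0.62 in HFD against CD liver and 0.77 in db against misty liver. The difference was not tested, since 1 value per group was deposited. The ratios come from transcripts numbered on different strands, and the own-strand transcript of the genetic model had a log2 ratio of 0.67. After the own-strand Cyp2u1 transcript 4 numbers are skipped in both models, so its value may be 1 transcript of several.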

How the results depend on the processing

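The count past 1.5-fold in HFD against CD, 4 of 10 genes, became 2 with a mean of at least 5 FPKM (8 genes left), 2 with ratios centred on the median of all transcripts, 0 at a limit of 2-fold and 0 of 4 for genes whose locus skips no transcript number. Its median of -0.47 became -0.28 with the minimum of 5 FPKM and -0.28 for those 4 genes. In db against misty, the count of 6 became 2 at a limit of 2-fold. The median of 0.52 became 0.64 with own-strand transcripts only (9 genes) and 0.35 with equal upper quartiles. It became 0.77 for the 6 genes after whose represented transcript no number is skipped. Those 6 include Cyp2j5 and Cyp2u1, whose represented transcripts were numbered on the opposite strand and may not be those of the gene itself. Rescaling to an equal sum over all listed transcripts gave counts of 7 and 10 and medians of 0.71 and 4.67 for the dietary and genetic model. It turned Cyp2d9 to 0.23, Cyp2d10 to 0.59, Cyp2e1 to 0.16 and Cyp2u1 to 0.51 in the dietary model and Cyp2d9 to 2.43 in the genetic model. That sum differs 2.27-fold and 17.7-fold between the groups, and 20 transcripts hold 89.5% and 94.7% of it in the controls, so this scaling follows those transcripts. Elsewhere, Cyp2u1 in the dietary model was within the limit at -0.45 with a pseudocount of 1 FPKM and at -0.58 after centring, Cyp2d10 at -0.55 after centring, and Cyp2d26 in the genetic model at 0.47 with equal upper quartiles. Own-strand transcripts, upper quartiles and skipped numbers were chosen as alternatives after seeing the data. Medians were taken as moved beyond 0.1 on the log2 scale. No replicate could be left out since values are pooled. No paired analysis was possible because the tables hold 1 pooled value per group.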

Other observations

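Further transcripts of the same loci, chosen after their values were seen, are given as values. Cyp2d37-ps, a Cyp2d gene between Cyp2d9 and Cyp2d40, had 10.6 FPKM in CD and 6.43 FPKM in HFD liver, and 5.43 FPKM in misty and 6.48 FPKM in db liver. Cyp2d12 was quantified in the dietary model alone, with 1.96 FPKM in CD and 2.04 FPKM in HFD liver. The antisense gene Gm15883 within Cyp2f2 had 7.95 FPKM in CD and 6.91 FPKM in HFD liver, and 2.82 FPKM in misty and 4.0 FPKM in db liver. The antisense gene 4930534D22Rik at Cyp2u1 had 1.56 FPKM in CD and 0.921 FPKM in HFD liver. In the genetic model it had a transcript with 1.08 FPKM in misty and 0.940 FPKM in db liver, and another with 0.754 FPKM in misty and 0.931 FPKM in db liver.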
